A study of Mus musculus with 24 samples.

Results

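Cholesterol synthesis, uptake and export were followed in mouse liver through 33 gene symbols chosen by function, of which 32 were found among the 23411 symbols of the count table. They comprised 17 enzymes of sterol synthesis, 5 regulators, 4 genes of uptake and intracellular transport, and 6 genes of export and esterification. The symbol not found was Msmo1, which the table lists under its older name Sc4mol. That row is described but left out of every count. All 32 members passed the filter on low counts. RNA-seq of poly(A) RNA covered 24 livers of male mice aged 16 to 20 weeks on a mixed 129/Sv and C57BL/6 background, with 3 mice in each of 8 groups. α7HMZ mice carry an exon swap and make only the P2 form of HNF4α, a nuclear receptor of hepatocytes, whereas adult WT livers make the P1 form. Mice of both genotypes were fasted for 12 h and killed at 10:30, and fed mice of both genotypes had food ad libitum and were killed at 10:30, 13:30 or 20:30.

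Hepatocytes build cholesterol from acetyl-CoA by way of mevalonate, isoprenoid units, squalene and lanosterol. When sterols in the endoplasmic reticulum run low, SCAP escorts SREBP-2, the product of Srebf2, to the Golgi, where it is cut to release a transcription factor that raises most genes of the route. INSIG1 and INSIG2 hold SCAP back when sterols are plentiful. Feeding and insulin are known to raise, and fasting to lower, this programme in liver, while oxysterol-activated LXR raises the exporters ABCA1, ABCG1, ABCG5 and ABCG8.

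Library totals ranged between 8545959 and 28445590 counts. The ribosomal RNA gene Rn45s took 50.8% of the counts of the fed α7HMZ 10:30 replicate 1 library and at most 3.76% elsewhere. Hnf4a itself does not check the genotype, because its count also covers exons that both forms share. Hepatocyte markers were abundant in every library. In fed α7HMZ livers, averaged over the times, 3 of 6 of them were lower than in WT livers, 2 of 6 bile duct markers tested were higher, and 0 of 11 Kupffer cell markers were called. Of all genes tested in that comparison, 13.1% were called lower and 13.2% higher. The 3 red blood cell markers in the table summed to 53.2 to 83.6 CPM, counts scaled to library size, in fed α7HMZ livers and to 143 to 195 CPM in fed WT livers, without overlap. The part of these markers in the results below was not tested. Kupffer cell markers summed to 998 CPM in the fasted α7HMZ replicate 3 liver, against 216 and 237 CPM in the other fasted α7HMZ livers and 131 to 237 CPM in fasted WT livers. Flow cell 375 held the libraries of fasted WT livers and of α7HMZ and WT livers fed until 10:30, and flow cell 377 held the rest. Fed genotype comparisons, the step between 13:30 and 20:30 and fasting in WT livers therefore each lay within a flow cell. Fasting in α7HMZ livers, the genotype difference in fasted livers and the comparison of the fasting responses crossed flow cells, and there flow cell and group cannot be told apart.

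Promoter windows of 300 bases around the RefSeq gene start (GRCm38.p6) were at hand for 24 of the 32 members and were searched on both strands. A sterol element, spelled TCACNCCAC, lay in the window of 1 of the 24, Hmgcs1, against 1.44% of all genes with a window. CCAAT, the box bound by NF-Y, a partner of SREBP-2, was present in 21 of the 24 (87.5%), against 41.1% of all genes. The HNF4 element CAAAGTCCA was found in 0 of the 24 and in 0.555% of all genes. These matches are descriptions of letters in a window, not of bound sites. Hmgcs1 is shown for its sterol element and its 4 inverted CCAAT boxes, Idi1 as an enzyme with a large fall on fasting, and Insig1 and Insig2 because the 2 related genes moved in opposite directions on fasting. Capitals mark matches, with ATTGG being CCAAT read on the other strand, and no matches overlap.
Hmgcs1, chr13:119690101-119690400, plus strand: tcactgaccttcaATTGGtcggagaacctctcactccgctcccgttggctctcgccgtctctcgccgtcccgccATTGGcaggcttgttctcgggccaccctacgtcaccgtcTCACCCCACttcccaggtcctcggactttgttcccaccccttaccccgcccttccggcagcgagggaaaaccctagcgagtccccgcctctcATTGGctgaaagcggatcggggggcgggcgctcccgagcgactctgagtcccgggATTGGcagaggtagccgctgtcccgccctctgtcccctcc
Idi1, chr13:8885356-8885655, plus strand: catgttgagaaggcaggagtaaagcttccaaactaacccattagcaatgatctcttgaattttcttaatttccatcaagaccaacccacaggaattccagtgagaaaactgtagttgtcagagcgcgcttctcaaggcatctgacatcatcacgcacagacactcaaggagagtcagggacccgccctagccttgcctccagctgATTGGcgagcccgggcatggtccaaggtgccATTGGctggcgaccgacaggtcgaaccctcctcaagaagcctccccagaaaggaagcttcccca
Insig1, chr5:28071162-28071461, plus strand: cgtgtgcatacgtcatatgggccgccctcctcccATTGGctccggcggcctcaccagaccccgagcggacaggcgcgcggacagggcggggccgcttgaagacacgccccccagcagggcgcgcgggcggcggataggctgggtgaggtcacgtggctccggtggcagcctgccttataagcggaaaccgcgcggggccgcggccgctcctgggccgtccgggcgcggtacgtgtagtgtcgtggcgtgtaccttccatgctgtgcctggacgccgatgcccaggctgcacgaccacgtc
Insig2, chr1:121332540-121332839, minus strand, the first of its 3 windows: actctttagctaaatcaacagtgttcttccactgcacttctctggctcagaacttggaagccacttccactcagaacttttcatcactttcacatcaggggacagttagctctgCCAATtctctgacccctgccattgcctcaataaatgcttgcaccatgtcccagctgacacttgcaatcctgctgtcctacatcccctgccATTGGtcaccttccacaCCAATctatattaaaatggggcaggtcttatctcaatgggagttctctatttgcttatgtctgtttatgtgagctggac

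In fed livers, the α7HMZ genotype went with lower RNA of most synthesis enzymes. Averaged over the 3 times of day, 14 of the 17 enzymes were lower in α7HMZ livers and 0 were higher, with a median log2 fold change of -0.57 against 0.03 over all genes tested (edgeR quasi-likelihood test, Benjamini-Hochberg adjusted p under 0.05 over 13334 genes). Of all 32 members, 20 were lower and 0 higher, where 13.1% of all genes tested were called lower and 13.2% higher. Each of the 20 calls held when any of the 18 fed libraries was left out, and 15 of the 20 held under all 11 other settings tried. Under full quantile scaling, the calls of Fdft1, Tm7sf2, Ebp and Lcat ended. Those of Cyp51 and Tm7sf2 ended when the 4 libraries highest in Rn45s, in the bile duct marker Krt19 or in the pancreatic marker Ctrb1 were left out together (edgeR adjusted p = 0.0813 and 0.0756). The other 3 enzymes, Hmgcs1, Mvk and Sqle, also had negative values, at -0.59 ± 0.21, -0.36 ± 0.13 and -0.47 ± 0.19 (SE), with edgeR adjusted p = 0.0562, 0.0528 and 0.0929. At an unadjusted p under 0.05, 17 of the 17 enzymes differed. That cut is looser, and its share over all genes is not given here, so it adds no call for these 3.

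**Figure D1:**
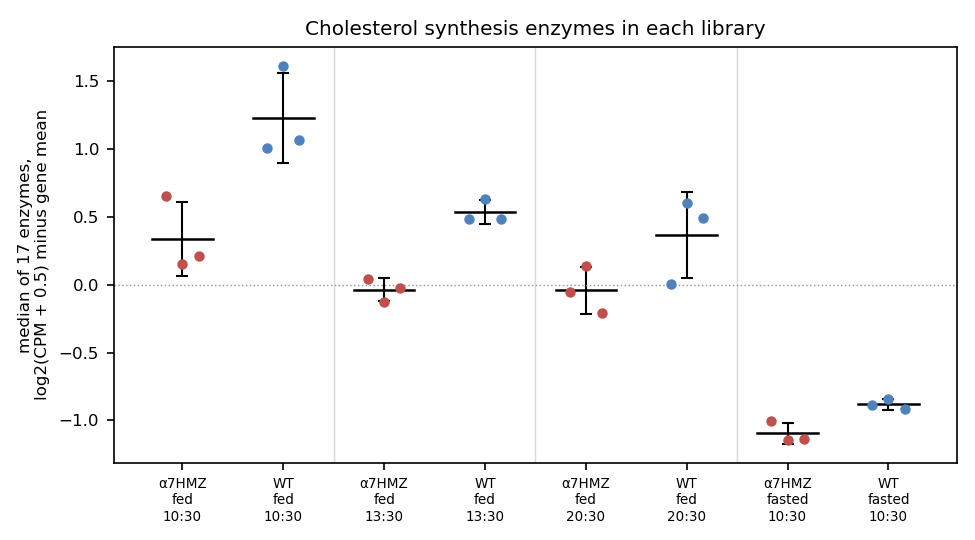
Level of the synthesis programme in each library. Each point is 1 liver and gives the median over 17 enzymes of log2(CPM + 0.5) minus that gene's mean over the 24 libraries, with black lines for the group mean and SD (n = 3); fed WT livers at 10:30 stand highest, at 1.23 ± 0.33, and fasted livers of both genotypes lowest, at -1.09 ± 0.08 in α7HMZ and -0.88 ± 0.04 in WT.

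The size of the difference was read at each time of day. At 10:30, 9 enzymes were lower and 0 higher in α7HMZ livers, and among all 32 members 14 were lower and 1 higher, where 8.95% of all genes tested were lower and 8.20% higher. At 13:30 the counts were 7 enzymes, and 10 members lower and 0 higher, where 6.52% of all genes were lower and 6.04% higher. The count of lower members at 13:30 was 16 with DESeq2 and 19 when only the groups compared were fitted. The shares of all genes given for 13:30 are those of the main fit, so these counts cannot be set against them. At 20:30 they were 6 enzymes, and 9 members lower and 0 higher, where 10.8% of all genes were lower and 8.22% higher. The 20:30 count rests on few livers. It was 2 members without α7HMZ replicate 3, 3 without α7HMZ replicate 1, and 4 without either WT replicate 2 or WT replicate 3, and 0 of its 9 calls held under every other setting tried. The median centred level of the 17 enzymes was 0.34 ± 0.27 in α7HMZ livers and 1.23 ± 0.33 in WT livers at 10:30, -0.04 ± 0.09 and 0.54 ± 0.09 at 13:30, and -0.04 ± 0.17 and 0.37 ± 0.32 at 20:30 (log2 scale, SD, n = 3 each). These SDs overlapped at 20:30 and not at the earlier times.

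The early, mevalonate part of the route was low in α7HMZ livers at several single steps. Pmvk, which adds the second phosphate to mevalonate, had 35.4, 28.0 and 37.6 CPM in α7HMZ livers at 10:30, against 57.8, 86.3 and 59.8 CPM in WT livers. At 13:30 it had 16.5, 21.7 and 14.4 CPM in α7HMZ livers, against 33.0, 49.5 and 37.1 CPM in WT livers. No α7HMZ liver reached the lowest WT liver for Pmvk at any of the 3 times. Its fed average was -0.95 ± 0.12 (SE) on the log2 scale (edgeR adjusted p = 9.95e-06), and it was called at all 3 times, the 20:30 call ending in 4 of 18 fits with 1 library left out. Mvd, the decarboxylase that makes isopentenyl pyrophosphate, had 8.30, 6.24 and 6.04 CPM in α7HMZ livers at 10:30, against 14.7, 24.0 and 19.8 CPM in WT livers. With an average of -1.05 ± 0.20 (edgeR adjusted p = 0.00114) it had the most negative fed value of the 17 enzymes, from 77 to 219 counts per α7HMZ library and 99 to 438 per WT library. At 20:30 the livers overlapped and Mvd was not called (-0.48 ± 0.36, edgeR adjusted p = 0.389). Acat2, the cytosolic thiolase at the entry of the route, was lower with little spread, at -0.48 ± 0.06 (edgeR adjusted p = 9.41e-06).

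Hmgcs1, the cytosolic synthase of HMG-CoA, varied widely between livers of a group. It had 501, 170.3 and 246 CPM in α7HMZ livers at 10:30, against 522, 852 and 448 CPM in WT livers, and α7HMZ replicate 1, the liver with the high Rn45s share, lay inside the WT range. At 13:30 it had 111, 88.5 and 85.6 CPM in α7HMZ livers, against 162, 209.9 and 148 CPM in WT livers, and at 20:30 156, 129 and 99.3 CPM in α7HMZ livers, against 89.1, 173 and 105 CPM in WT livers. The groups were apart at 13:30 and overlapped at the other times.

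The isoprenoid and squalene steps followed. Idi1, which isomerises isopentenyl pyrophosphate, had 172, 135 and 134 CPM in α7HMZ livers at 13:30, against 318, 307 and 288 CPM in WT livers (log2 fold change -1.05 ± 0.19 (SE), edgeR adjusted p = 0.000873). Fdps, which makes farnesyl pyrophosphate, had 135, 119.8 and 127 CPM in α7HMZ livers at that time, against 250.0, 289 and 235 CPM in WT livers (log2 fold change -1.02 ± 0.24 (SE), edgeR adjusted p = 0.00842). In both genes every α7HMZ liver was below every WT liver at 13:30, whereas at 10:30 their values, -0.45 ± 0.19 and -0.67 ± 0.23, were not called. Fdft1, squalene synthase, averaged -0.44 ± 0.12 (edgeR adjusted p = 0.0101), a call that ended under full quantile scaling (0.0774). Its annotated exons share 18.3% of their bases with Ctsb on the other strand, and the library kit does not keep strand. Those of Fdps share 26.7% with Gm43738 on the same strand, and smaller overlaps are annotated for other members.

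Most of the later steps, lanosterol to cholesterol, were lower too. Hsd17b7, the 3-ketosteroid reductase, stood apart by a difference of like size at every time. It had 57.4, 40.9 and 33.4 CPM in α7HMZ livers at 10:30, against 87.8, 102 and 74.3 CPM in WT livers, then 51.9, 33.0 and 33.2 CPM in α7HMZ livers at 13:30, against 104, 88.8 and 85.5 CPM in WT livers. At 20:30 the values were 39.6, 48.2 and 42.2 CPM in α7HMZ livers and 69.2, 81.8 and 62.6 CPM in WT livers. No α7HMZ liver reached the lowest WT liver at any time, and the fed average was -0.98 ± 0.11 (edgeR adjusted p = 3.1e-06). Nsdhl, which removes the C4 methyl groups with it, had an average of -0.58 ± 0.09 (edgeR adjusted p = 6.31e-05) and was called lower at each time. At 20:30, however, its livers overlapped (edgeR adjusted p = 0.0436) and the call ended in 8 of 18 fits with 1 library left out and in 6 of 12 other settings. Cyp51, the lanosterol demethylase, averaged -0.51 ± 0.13, Dhcr7, the reductase of the last step of one branch, -0.57 ± 0.12, and Tm7sf2, a sterol C14 reductase, and Ebp, a sterol isomerase, -0.36 ± 0.09 and -0.33 ± 0.08, with edgeR adjusted p between 0.00239 and 0.0065. The Sc4mol row, the C4 methyl sterol oxidase, averaged -0.80 ± 0.18 (edgeR adjusted p = 0.00299).

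At 10:30, Mvd had the most negative genotype difference of the 17 enzymes (-1.50 ± 0.36), followed by Sc5d and Lss. Sc5d, the lathosterol desaturase, had 354, 183 and 234 CPM in α7HMZ livers at 10:30, against 579, 715 and 546 CPM in WT livers. At 13:30 it had 209.8, 209.8 and 204 CPM in α7HMZ livers, against 300.4, 327 and 240.4 CPM in WT livers, and at 20:30 123, 171 and 170.1 CPM in α7HMZ livers, against 129, 175 and 153 CPM in WT livers. Every α7HMZ liver was below every WT liver at 10:30 and 13:30, and the genotypes overlapped at 20:30. The genotype difference was -1.25 ± 0.20, -0.48 ± 0.20 and 0.02 ± 0.20 in the order of the times. Of the 32 members, 1 was called in the test of genotype by time, Sc5d (edgeR adjusted p = 0.0373), where 5.03% of all genes tested were called. Insig2, Lss and Insig1 lay just above the threshold (edgeR adjusted p = 0.0529, 0.0703 and 0.0739), and other settings gave other counts of members. The Sc5d call ended in 14 of 18 fits with 1 library left out, with adjusted p between 0.00206 and 0.0921, and under full quantile scaling (0.0616). In this test each genotype difference lay within a flow cell. The fed 10:30 libraries were on another flow cell than the later fed ones, so time and flow cell changed together. Lss, lanosterol synthase, had 35.9, 29.6 and 25.4 CPM in α7HMZ livers at 10:30, against 52.8, 88.5 and 61.0 CPM in WT livers (log2 fold change -1.15 ± 0.19 (SE), edgeR adjusted p = 0.000344), while its difference over time was not called (0.0703).

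**Figure D2:**
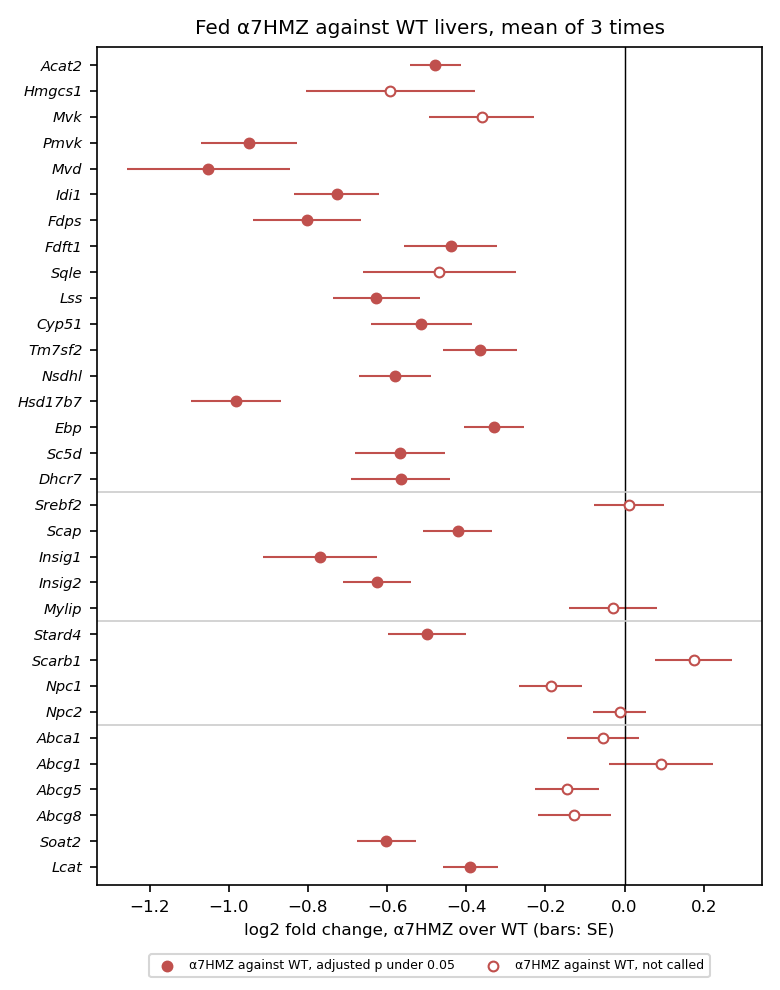
Fed genotype difference of the 32 members. Points give the log2 fold change of α7HMZ over WT livers averaged over 10:30, 13:30 and 20:30, bars the SE, filled points an adjusted p under 0.05, and grey lines part enzymes, regulators, uptake and transport, and export and esterification from top to bottom; the 20 filled points all lie left of 0, with Mvd, Hsd17b7 and Pmvk farthest left.

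Among the regulators, 3 of 5 were lower in fed α7HMZ livers on average and 0 higher, where 13.1% of all genes tested were lower and 13.2% higher. Srebf2 was not among the 3. It had 63.1, 47.0 and 42.0 CPM in α7HMZ livers at 10:30, against 59.3, 60.6 and 58.1 CPM in WT livers, and its fed average was 0.01 ± 0.09 (edgeR adjusted p = 0.952). Scap, the sterol sensor that escorts SREBP proteins, was lower, at -0.42 ± 0.09 on average (edgeR adjusted p = 0.00107), with 96.9, 108 and 114 CPM in α7HMZ livers at 13:30, against 144, 155 and 141 CPM in WT livers. Mylip, the ubiquitin ligase known as IDOL that LXR induces, averaged -0.03 ± 0.11 (edgeR adjusted p = 0.886).

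Both INSIG genes were lower in fed α7HMZ livers. Insig1, itself a target of SREBP, had 145, 98.3 and 172 CPM in α7HMZ livers at 10:30, against 388, 441 and 322 CPM in WT livers (log2 fold change -1.46 ± 0.25 (SE), edgeR adjusted p = 0.00078). At 13:30 it had 174, 124 and 153 CPM in α7HMZ livers, against 251, 243 and 233 CPM in WT livers, and at 20:30 158, 249 and 173 CPM in α7HMZ livers, against 147, 304 and 196 CPM in WT livers. The gap at 10:30 was complete, and at 20:30 the genotypes overlapped (-0.16 ± 0.25). Insig2 had 124, 94.9 and 147 CPM in α7HMZ livers at 10:30, against 284, 239 and 217 CPM in WT livers (log2 fold change -1.01 ± 0.15 (SE), edgeR adjusted p = 8.5e-05). The genotypes overlapped for it too at 20:30, with 155, 131 and 149.6 CPM in α7HMZ livers and 183, 147 and 162 CPM in WT livers. The change of the difference over time was not called for Insig1 or Insig2 (edgeR adjusted p = 0.0739 and 0.0529).

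**Figure D3:**
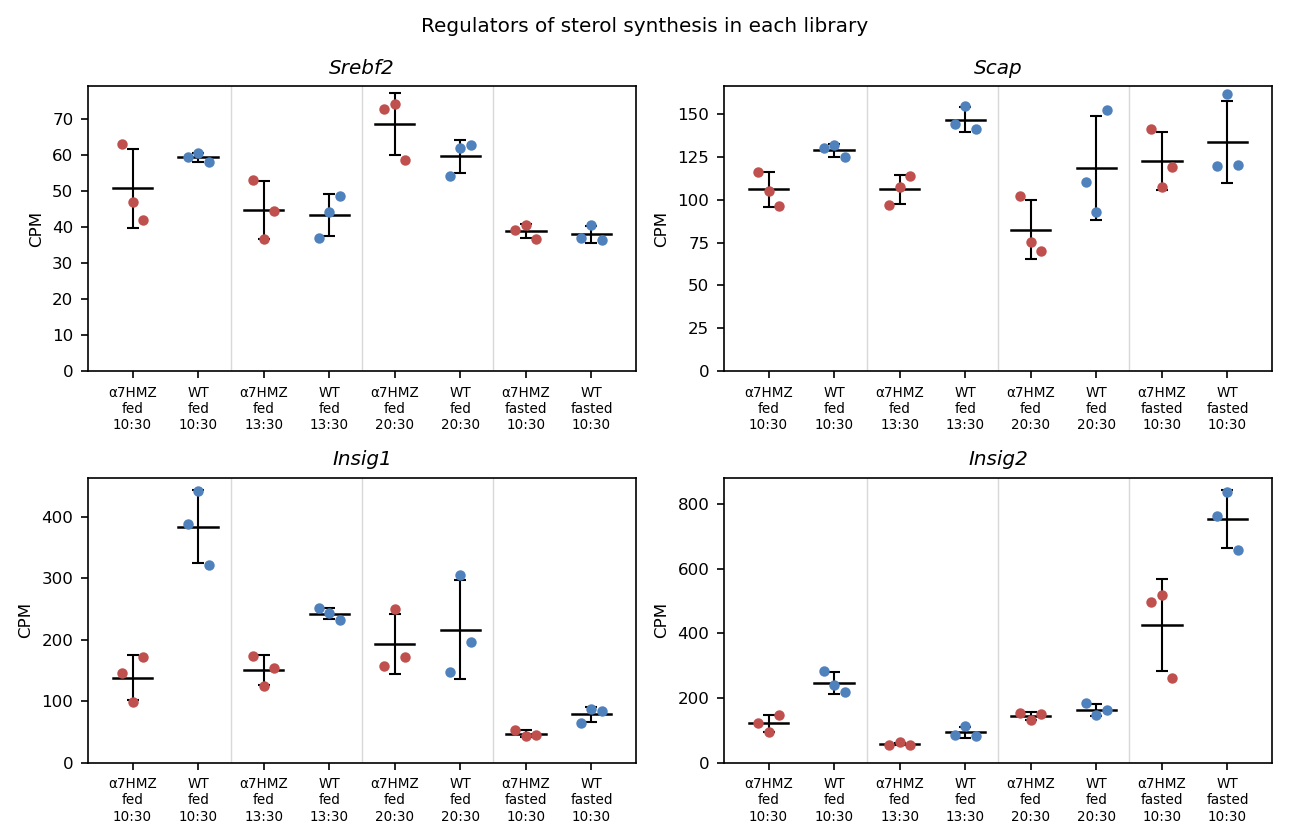
CPM of Srebf2, Scap, Insig1 and Insig2 in each library. Each point is 1 liver, with black lines for the group mean and SD (n = 3), α7HMZ in red and WT in blue; Insig1 is lowest and Insig2 highest in fasted livers, and the lowest fasted α7HMZ value of Insig2, 261 CPM, is that of replicate 3.

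Uptake and intracellular transport showed fewer differences on the fed average, where 13.1% of all genes tested were lower and 13.2% higher. Stard4, a carrier that moves sterol between membranes and is a known SREBP-2 target, had 62.0, 69.2 and 45.8 CPM in α7HMZ livers at 10:30, against 93.4, 104 and 88.5 CPM in WT livers, and its fed average of -0.50 ± 0.10 was the only call of the 4 genes (edgeR adjusted p = 0.000734). Scarb1, the HDL receptor SR-BI, was the only 1 of the 32 members called higher in α7HMZ livers at any time. It had 200.3, 211 and 213 CPM in α7HMZ livers at 10:30, against 168, 131 and 125 CPM in WT livers (log2 fold change 0.57 ± 0.17 (SE), edgeR adjusted p = 0.0253). All 3 α7HMZ livers were above all 3 WT livers, but the adjusted p was 0.104 without WT replicate 2, 0.106 without WT replicate 3, 0.068 without α7HMZ replicate 2 and 0.0849 without α7HMZ replicate 3. Npc1, which passes lysosomal cholesterol on, was called lower at 10:30 (-0.54 ± 0.14, edgeR adjusted p = 0.012) with overlapping livers, and Npc2, its soluble partner, had an average of -0.01 ± 0.07 (edgeR adjusted p = 0.918).

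Of the 6 genes of export and esterification, 2 were lower in fed α7HMZ livers on average, where 13.1% of all genes tested were lower. Neither of the 2 was an exporter. Soat2, the enzyme that esterifies cholesterol for storage and secretion, had 23.2, 19.9 and 22.3 CPM in α7HMZ livers at 10:30, against 39.5, 38.8 and 39.9 CPM in WT livers. At 20:30 it had 12.5, 15.8 and 11.7 CPM in α7HMZ livers, against 20.5, 19.5 and 20.6 CPM in WT livers, with no overlap at either time. At 13:30 the livers overlapped and it was not called (-0.36 ± 0.13, edgeR adjusted p = 0.0707). Its fed average was -0.60 ± 0.08 (edgeR adjusted p = 3.83e-06). Lcat, the secreted enzyme that esterifies cholesterol on HDL, had 362, 329.8 and 344 CPM in α7HMZ livers at 20:30, against 473, 449.7 and 655 CPM in WT livers (log2 fold change -0.61 ± 0.12 (SE), edgeR adjusted p = 0.00153). Its fed average of -0.39 ± 0.07 was called (edgeR adjusted p = 0.000226) and was not under full quantile scaling (0.152). The exporters Abca1, Abcg1, Abcg5 and Abcg8 averaged -0.06 ± 0.09, 0.09 ± 0.13, -0.14 ± 0.08 and -0.13 ± 0.09, with edgeR adjusted p between 0.21 and 0.715. Abcg5 and Abcg8 lie head to head on opposite strands and share 82 exon bases.

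The step between afternoon and early night was compared within 1 flow cell. In α7HMZ livers, 2 members were higher and 4 lower at 20:30 than at 13:30, where 3.00% of all genes tested were higher and 2.02% lower. The count of lower members was 1 without 13:30 replicate 2, and 2 without 13:30 replicate 1 or 20:30 replicate 2. In WT livers, 3 members were higher and 3 lower, where 11.5% of all genes were higher and 9.96% lower. Of the 17 enzymes, 0 were called in α7HMZ livers and 1 in WT livers (Sc5d, -0.92 ± 0.20). In α7HMZ livers 2 enzymes had an unadjusted p under 0.05, a cut whose share over all genes is not given here. Insig2 had 155, 131 and 149.6 CPM at 20:30 in α7HMZ livers, against 56.1, 62.8 and 55.4 CPM at 13:30 (log2 fold change 1.33 ± 0.15 (SE), edgeR adjusted p = 2.43e-05). In WT livers it had 183, 147 and 162 CPM at 20:30, against 85.3, 113 and 83.5 CPM at 13:30 (log2 fold change 0.82 ± 0.15 (SE), edgeR adjusted p = 0.00125), so that the night values were above all afternoon values in both genotypes. Srebf2 was also higher at 20:30 in both, at 0.62 ± 0.15 in α7HMZ livers and 0.47 ± 0.15 in WT livers, each call ending in 4 of 18 fits with 1 library left out. In the same step, 2 of 6 bile duct markers were higher and 4 of 8 sinusoidal endothelial markers lower in α7HMZ livers, and 4 of 6 hepatocyte and 3 of 6 bile duct markers were higher in WT livers. Their part in these values was not tested.

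Stard4 and Soat2 were lower at 20:30 in both genotypes, Stard4 at -0.63 ± 0.17 in α7HMZ and -1.17 ± 0.17 in WT livers and Soat2 at -0.82 ± 0.13 in α7HMZ and -0.57 ± 0.13 in WT livers. Abcg8 and Npc1 were called lower in α7HMZ livers (-0.74 ± 0.16 and -0.56 ± 0.14) and not in WT livers (-0.21 ± 0.16 and -0.26 ± 0.14), and Lcat was called higher in WT livers (0.51 ± 0.12). The α7HMZ calls of Stard4 and of Npc1 each ended in 5 of 18 fits with 1 library left out. None of these steps was shown to differ between genotypes. In the edgeR test of that difference, 0 of the 32 members were called in either direction, where 0.105% of all genes were called higher and 0.0975% lower. An unadjusted p under 0.05 was found for 4 members, and the share of all genes at that cut is not given here.

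Most synthesis enzymes were lower after 12 h of fasting than in fed livers in both genotypes. In α7HMZ livers, fasting and flow cell cannot be told apart. In fasted α7HMZ livers, 15 of 17 enzymes were lower than in fed α7HMZ livers at 10:30 and 0 higher, with a median log2 fold change of -1.48 against -0.01 over all genes tested. Over the 32 members, 17 were lower and 2 higher, where 5.81% of all genes tested were lower and 6.68% higher. In fasted WT livers, 16 enzymes were lower than in fed WT livers and 0 higher, with a median of -2.31 against 0.00, and of the 32 members 19 were lower and 3 higher, where 10.5% of all genes were lower and 12.1% higher. Both comparisons used 12 libraries and 13103 genes. Of the calls, 17 of 19 in α7HMZ and 21 of 22 in WT livers held without any single library. In the fasted WT livers, 6 of 8 sinusoidal endothelial markers were lower than in fed WT livers, with summed levels of 152 to 254 CPM in fasted and 352 to 418 CPM in fed WT livers. Kupffer cell markers also summed lower without overlap, at 131 to 237 CPM in fasted and 351 to 467 CPM in fed WT livers, with 1 of 11 called lower. In α7HMZ livers they overlapped, at 216 to 998 CPM fasted and 285 to 389 CPM fed. Red blood cell markers summed to 41.6 to 49.0 CPM in fasted and 65.9 to 76.8 CPM in fed α7HMZ livers, and to 75.2 to 85.4 CPM in fasted and 154 to 166 CPM in fed WT livers. Bile duct markers called higher on fasting were 1 of 6 in α7HMZ and 3 of 6 in WT livers. The part of these markers in the result was not tested, and in whole tissue fewer cells of a type and less RNA per cell cannot be told apart.

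**Figure D4:**
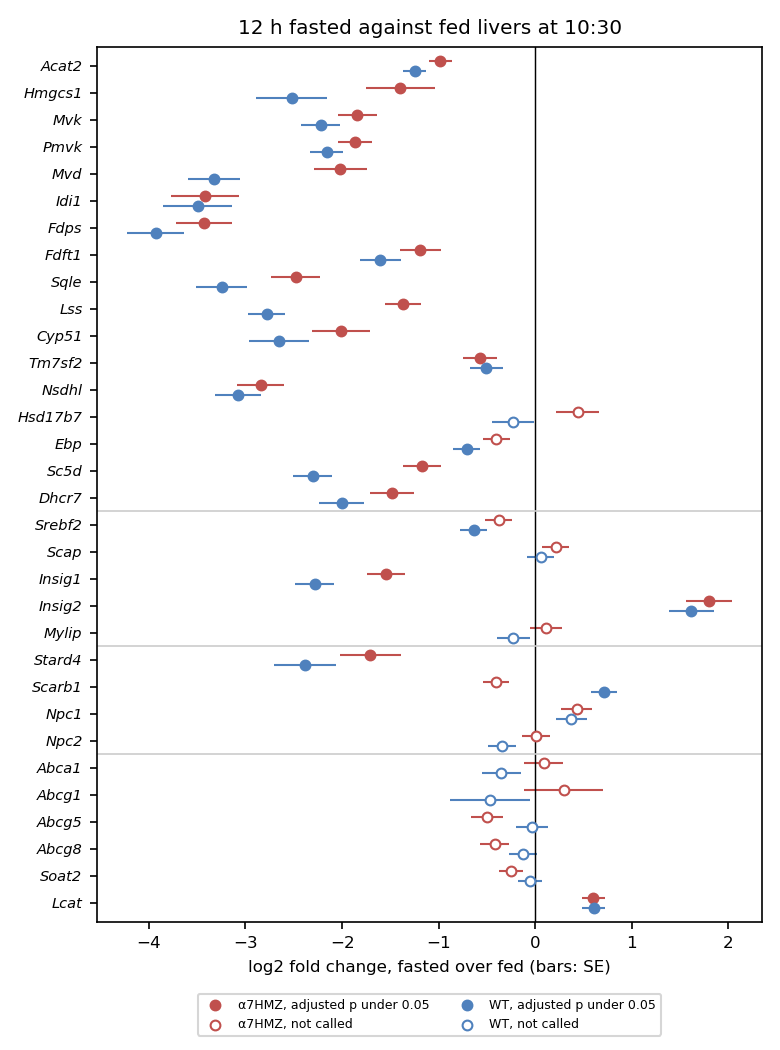
Fasting responses of the 32 members at 10:30. Points give the log2 fold change of fasted over fed livers in α7HMZ (red) and WT (blue), bars the SE, and filled points an adjusted p under 0.05, with grey lines between the roles; the enzymes in the upper block lie left of 0 in both genotypes except Hsd17b7, and Insig2 lies at 1.80 in α7HMZ and 1.61 in WT.

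In WT livers the fall was deepest at Fdps, Idi1, Mvd, Sqle and Nsdhl. Fdps had 16.6, 24.8 and 18.5 CPM in fasted α7HMZ livers, against 239.8, 179 and 229 CPM in fed α7HMZ livers (log2 fold change -3.43 ± 0.29 (SE), edgeR adjusted p = 1.71e-05). In WT it had 14.8, 27.7 and 25.6 CPM in fasted livers, against 248, 468 and 321 CPM in fed livers (log2 fold change -3.93 ± 0.29 (SE), edgeR adjusted p = 6.01e-06). The fasted ranges of the genotypes overlapped, whereas every fed α7HMZ liver was below every fed WT liver. Idi1 had 15.7, 41.1 and 20.6 CPM in fasted α7HMZ livers, against 316, 239 and 277 CPM in fed ones (log2 fold change -3.42 ± 0.36 (SE), edgeR adjusted p = 0.00013). In WT livers Idi1 had 39.0, 39.9 and 22.1 CPM fasted, against 303, 463 and 375 CPM fed (log2 fold change -3.49 ± 0.36 (SE), edgeR adjusted p = 7.02e-05). Log2 fold changes were -2.48 ± 0.25 in α7HMZ and -3.25 ± 0.26 in WT livers for Sqle, squalene epoxidase, and -2.84 ± 0.24 in α7HMZ and -3.08 ± 0.24 in WT livers for Nsdhl. Sc4mol, outside the counts, had -2.88 ± 0.31 in α7HMZ and -3.03 ± 0.31 in WT livers.

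Hsd17b7 was the 1 enzyme not called in either genotype. It had 50.3, 79.4 and 48.4 CPM in fasted α7HMZ livers, against 57.4, 40.9 and 33.4 CPM in fed α7HMZ livers (log2 fold change 0.44 ± 0.22 (SE), edgeR adjusted p = 0.226). In WT livers the values were 72.8, 85.9 and 65.8 CPM fasted and 87.8, 102 and 74.3 CPM fed (log2 fold change -0.23 ± 0.22 (SE), edgeR adjusted p = 0.481). Fed and fasted livers overlapped in both genotypes. Ebp was not called in α7HMZ livers (-0.40 ± 0.14, edgeR adjusted p = 0.0753) and was lower in WT livers (-0.71 ± 0.14). Tm7sf2 was lower in both (-0.57 ± 0.17 in α7HMZ and -0.51 ± 0.17 in WT livers), but its calls ended in 8 of 12 fits with 1 library left out in α7HMZ and 7 of 12 in WT livers. Hmgcs1 had 96.1, 136 and 116 CPM in fasted α7HMZ livers, against 501, 170.3 and 246 CPM in fed ones (log2 fold change -1.40 ± 0.35 (SE), edgeR adjusted p = 0.0243), a call that ended without any 1 of the 3 fasted α7HMZ libraries (adjusted p = 0.0519 to 0.0892).

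The INSIG genes moved in opposite directions on fasting. Insig1 had 53.9, 42.6 and 45.7 CPM in fasted α7HMZ livers, against 145, 98.3 and 172 CPM in fed ones, and 65.1, 87.1 and 83.5 CPM in fasted WT livers, against 388, 441 and 322 CPM in fed ones. The log2 fold change was -1.55 ± 0.19 in α7HMZ livers (edgeR adjusted p = 0.000182) and -2.28 ± 0.20 in WT livers (adjusted p = 6.74e-06). Insig2 had 496, 517 and 261 CPM in fasted α7HMZ livers, against 124, 94.9 and 147 CPM in fed ones (log2 fold change 1.80 ± 0.23 (SE), edgeR adjusted p = 0.000296). In WT it had 762, 837 and 658 CPM in fasted livers, against 284, 239 and 217 CPM in fed livers (log2 fold change 1.61 ± 0.23 (SE), edgeR adjusted p = 0.000374). All 6 fasted livers were above all fed livers of their genotype for Insig2 and below them for Insig1. Insig2 is known in mouse liver for a transcript that is induced by fasting and lowered by insulin, and gene counts do not part its transcripts. Srebf2 had -0.38 ± 0.14 in fasted α7HMZ livers (edgeR adjusted p = 0.0833) and was lower in fasted WT livers (-0.64 ± 0.14, adjusted p = 0.00424), and Scap and Mylip were not called in either genotype.

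Outside synthesis and its regulators, 3 of 10 genes were called on fasting in at least 1 genotype. Of all genes tested, 5.81% were lower and 6.68% higher in α7HMZ livers, and 10.5% lower and 12.1% higher in WT livers. The count joins both genotypes and both directions, so the share that belongs beside it is larger than any of these. It is therefore not read as an excess. Lcat was higher in both, at 0.60 ± 0.12 in α7HMZ and 0.60 ± 0.12 in WT livers, and Stard4 lower in both, at -1.71 ± 0.32 in α7HMZ and -2.38 ± 0.32 in WT livers. Scarb1 had 159.6, 138 and 170.3 CPM in fasted α7HMZ livers, against 200.3, 211 and 213 CPM in fed ones (log2 fold change -0.41 ± 0.13 (SE), edgeR adjusted p = 0.0621). In WT livers it had 229, 259 and 202 CPM fasted, against 168, 131 and 125 CPM fed (log2 fold change 0.71 ± 0.14 (SE), edgeR adjusted p = 0.00219), so that the 3 fasted livers were below the fed ones in α7HMZ and above them in WT.

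The fasting responses were then set against each other by an interaction term, which crossed flow cells. Of 32 members, 1 was called higher and 1 lower, where 0.160% of all genes tested were higher and 0.0916% lower. The higher one was Lss, with 12.1, 11.5 and 11.6 CPM in fasted and 35.9, 29.6 and 25.4 CPM in fed α7HMZ livers, and 10.3, 10.3 and 8.80 CPM in fasted and 52.8, 88.5 and 61.0 CPM in fed WT livers. Its log2 fold change was -1.37 ± 0.19 in α7HMZ and -2.78 ± 0.19 in WT livers, a difference of 1.41 ± 0.26 (edgeR adjusted p = 0.0357). The lower one was Scarb1, with a difference of -1.12 ± 0.19 (edgeR adjusted p = 0.0286). The Lss call ended in 9 of 12 fits with 1 library left out (adjusted p up to 0.105) and the Scarb1 call in 7 of 12 (up to 0.12). Sc5d differed by 1.13 ± 0.27 and was not called (0.113), although without fed α7HMZ replicate 1, the library with the most Rn45s, its value was 1.43 with an adjusted p of 0.00709.

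In fasted livers themselves, 7 members were lower in α7HMZ than in WT and 0 higher, where 8.45% of all genes tested were lower and 6.43% higher. This comparison also crossed flow cells, and the count was 3 without WT replicate 2 and 4 without α7HMZ replicate 2. Only 2 of the 17 enzymes were among them, Pmvk (-0.72 ± 0.18, edgeR adjusted p = 0.0134) and Acat2 (-0.43 ± 0.12, adjusted p = 0.0272), and the enzymes' median was -0.21. Soat2 had 17.6, 17.6 and 19.7 CPM in fasted α7HMZ livers, against 32.6, 37.0 and 43.6 CPM in fasted WT livers (log2 fold change -1.05 ± 0.12 (SE), edgeR adjusted p = 7.09e-05), and this call held without any single library. Abcg5, which pairs with ABCG8 to move sterols into bile, had 57.7, 47.2 and 56.6 CPM in fasted α7HMZ livers, against 76.7, 78.7 and 106 CPM in fasted WT livers (log2 fold change -0.70 ± 0.16 (SE), edgeR adjusted p = 0.0102). Both genes had every α7HMZ liver below every WT liver. The other calls were Insig1 (-0.73 ± 0.19), Insig2 (-0.83 ± 0.23) and Scarb1 (-0.56 ± 0.13). Without fasted α7HMZ replicate 3, the liver with high Kupffer markers, Insig2 was -0.59 with an adjusted p of 0.0516 and Insig1 -0.72 with 0.0546.

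Abcg1, an exporter that macrophages use, and Npc2 had their highest values in that same liver. Abcg1 had 5.14, 4.57 and 15.2 CPM in fasted α7HMZ livers, against 5.55, 3.80 and 4.94 CPM in fasted WT livers (log2 fold change 0.78 ± 0.41 (SE), edgeR adjusted p = 0.224). Npc2 had 65.6, 62.4 and 90.7 CPM in fasted α7HMZ livers, against 49.7, 52.8 and 61.8 CPM in fasted WT livers (log2 fold change 0.41 ± 0.15 (SE), edgeR adjusted p = 0.0774). Of the 11 Kupffer markers in the table, 1 was called higher in fasted α7HMZ than in fasted WT livers, as were 4 of 8 sinusoidal endothelial markers, and 4 of 6 bile duct markers were lower. Of all genes tested in that comparison, 6.43% were called higher and 8.45% lower. Red blood cell markers summed to 41.6 to 49.0 CPM in fasted α7HMZ livers and 75.2 to 85.4 CPM in fasted WT livers. Their part in these values was not tested.

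**Figure D5:**
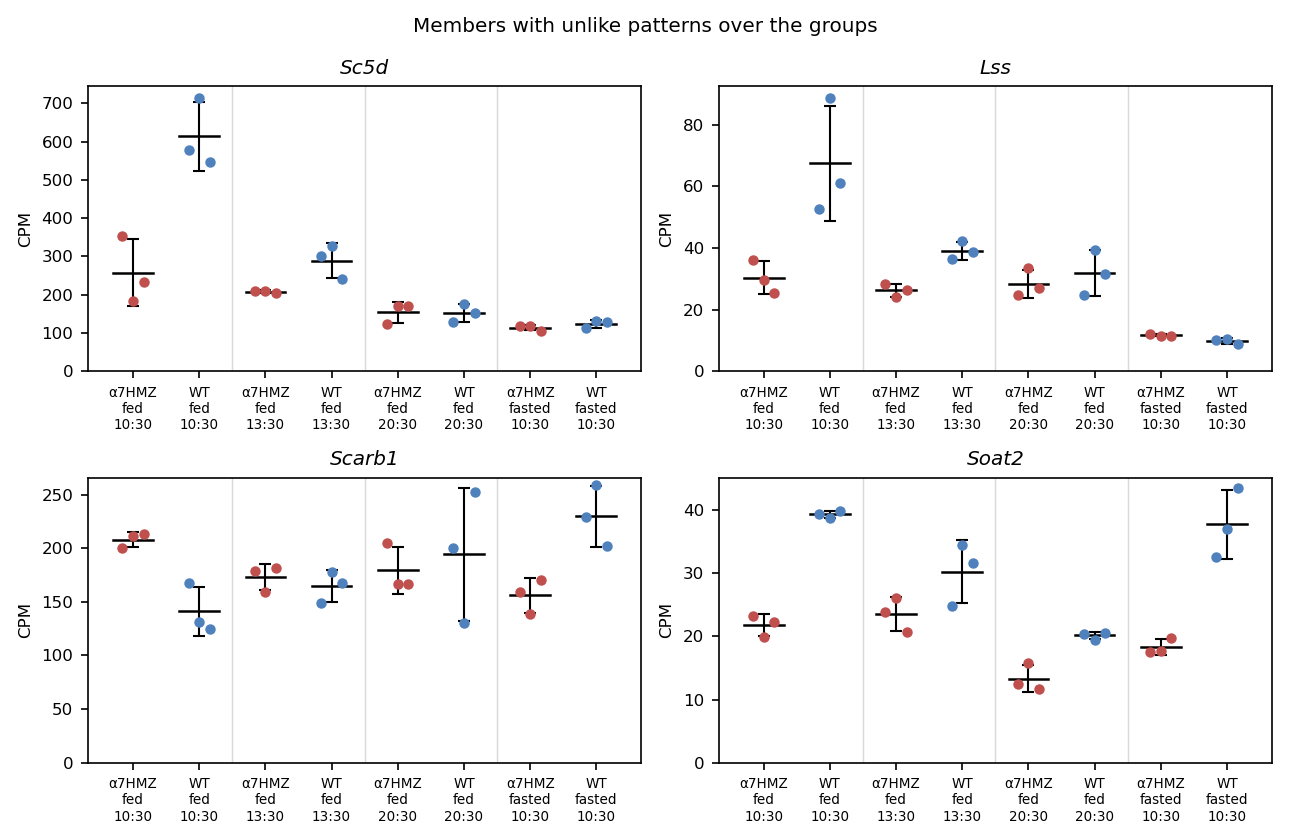
CPM of Sc5d, Lss, Scarb1 and Soat2 in each library. Each point is 1 liver, with black lines for the group mean and SD (n = 3), α7HMZ in red and WT in blue; Sc5d and Lss of fed WT livers stand highest at 10:30, Scarb1 of fasted livers lies lower in α7HMZ than in WT, and Soat2 of α7HMZ livers lies below WT at 10:30 and 20:30 and in fasted livers.

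A further list of 33 genes of sterol synthesis, lipoprotein uptake, sterol sensing and bile acid synthesis, none of them members, was read beside the members, and 32 of them were tested. In fed α7HMZ livers 13 were lower and 1 higher on average, with a median of -0.19, where 13.1% of all genes tested were lower and 13.2% higher. In fasted α7HMZ livers 7 were lower and 0 higher than in fed ones, where 5.81% of all genes were lower and 6.68% higher. That comparison crossed flow cells. In fasted WT livers 8 were lower and 1 higher than in fed ones, where 10.5% of all genes were lower and 12.1% higher. Of the 4 with the smallest p in the fed average, Stard5, a sterol-binding carrier, averaged -0.71 ± 0.06 (edgeR adjusted p = 5.18e-08) and Cyp27a1, the sterol 27-hydroxylase of bile acid and oxysterol synthesis, -0.76 ± 0.07 (adjusted p = 8.71e-08). Vldlr, a receptor for triglyceride-rich lipoproteins, was the 1 that was higher, at 1.64 ± 0.16 (adjusted p = 2.64e-07). It had 7.54, 9.44 and 10.9 CPM in α7HMZ livers at 20:30, against 1.04, 2.05 and 1.74 CPM in WT livers.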

How the data were processed

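The members and gene lists were chosen with earlier results of these data known. GEO's labels gave each library its group, with 3 mice in each of 8 groups. The authors sequenced 75-base single-end reads, and the submitters' processing notes name TopHat2 2.1.1, the mm10 genome and HTSeq 0.6.1, which gave the deposited table of raw counts for each gene symbol. The deposited FPKM values were not used.

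Counts were tested in R 4.3.3 with edgeR 4.0.16 (filterByExpr, TMM factors, glmQLFit with robust estimation, glmQLFTest, Benjamini-Hochberg adjusted p under 0.05), in 1 fit of the 18 fed libraries (13334 genes tested) and 1 of the 12 libraries at 10:30 (13103 genes tested). Each SE was taken from the log2 fold change and the root of its F value. CPM used TMM factors over all 24 libraries. Alternatives were other scalings, DESeq2 1.42.0, other filters and sample sets, a replicate block, and each library left out. The edgeR steps were tested on simulated data. Replicate livers differed by more than sampling noise, with a chi-square of at least 11.0 per degree of freedom. Gene positions came from GENCODE on mm10, and promoter windows from RefSeq. Every member was to be described, and of the other cholesterol genes the 4 with the smallest p in the fed average, of which 1 is not reported here. P-values measure the spread between mice, and depth is given as the library total.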

Additional observations from a re-analysis of the deposited data

Results flagged for a closer look

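Of the tests of whether a response differed between genotypes or over time, 3 passed the threshold among the members. In genotype by time, 5.03% of all genes tested were called, a share that the single call of Sc5d does not exceed. In genotype by fasting, 0.160% of all genes tested were called higher and 0.0916% lower. The Sc5d genotype difference varied over the 3 fed times (edgeR genotype by time, adjusted p = 0.0373), with log2 values of -1.25 at 10:30, -0.48 at 13:30 and 0.02 at 20:30, a call that ended in 14 of 18 fits with 1 library left out. The fasting response differed between α7HMZ and WT livers for Lss (edgeR adjusted p = 0.0357, difference 1.41), with log2 fold changes of -1.37 in α7HMZ and -2.78 in WT livers. It also differed for Scarb1 (edgeR adjusted p = 0.0286, difference -1.12), with -0.41 in α7HMZ and 0.71 in WT livers. Of these 2 calls, 0 held in every fit with 1 library left out. The Lss and Scarb1 tests crossed flow cells. In the Sc5d test each genotype difference lay within a flow cell, but flow cell changed together with time between 10:30 and the later times.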

How the results depend on the processing

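Among the values of single members, 0 changed direction with a call. In other settings, 4331 of 4512 values kept their side of the threshold, 84 lost a call and 97 gained one, and with 1 library left out 5900 of 6144 kept it, 162 lost and 82 gained. The member count is given next for settings that moved it by over 1.5 times, and the cause was not tested. The share of all genes called under the same setting is not given beside it. A moved count therefore need not be particular to the members. Members lower in fed α7HMZ livers at 13:30 were 16 with DESeq2 and 19 with only the groups compared. At 20:30 they were 5 with upper quartile factors, with all 24 libraries in 1 fit or with only the groups compared, 2 with full quantile offsets or without 4 libraries (those highest in Rn45s, Krt19 or Ctrb1), and 3 once GC content was also fitted. On average 9 were lower by at least 1.5-fold, and 1 was higher under either quantile offset. At 10:30, 0 were higher by at least 1.5-fold. Genotype by time gave 0 members with GC content offsets, 5 with DESeq2, 2 with at least 50 counts and 8 without the 4 libraries. From 13:30 to 20:30 in WT livers, 1 was higher under either quantile offset or at 1.5-fold, and 6 (full quantile), 5 (with GC content) or 7 (without the 4 libraries) were lower. In α7HMZ livers 1 was higher with only the groups compared. In fasted livers, 1 was higher in α7HMZ with DESeq2, all 24 libraries, or without the library with the most Rn45s, and 4 were lower with full quantile offsets. Genotype by fasting gave 0 higher with GC content offsets and 2 with DESeq2, all 24 libraries, or without the library with the most Rn45s. With each library left out, the counts of higher members ranged between 0 and 1 at 10:30 and on average, 2 and 4 (20:30 against 13:30, WT), 1 and 2 (the same, α7HMZ), 0 and 2 (fasted genotype difference) and 0 and 2 (genotype by fasting). Those of lower members ranged between 2 and 12 at 20:30, 3 and 5 (20:30 against 13:30, WT), 1 and 4 (the same, α7HMZ), 3 and 8 (fasted genotype difference) and 0 and 1 (genotype by fasting), and genotype by time between 0 and 5. Upper quartile factors moved the share of higher calls among all genes in the fed average to 60.2% (50.1% with TMM), at 13:30 to 60.3% (48.1%) and at 20:30 to 54.1% (43.2%). The labels do not say whether the replicate numbers pair the mice. Correlations of same-numbered deviations lay between -0.308 and 0.164 in fed livers and between -0.180 and 0.323 at 10:30, which cannot settle it. With a replicate block, genotype by time called 0 members, 1 was higher in fasted α7HMZ livers, and the edgeR adjusted p of Sc5d was 0.0554. Depth limited Mvd most, with 24 to 45 counts in fasted libraries.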
